A study of Mus musculus with 24 samples.

Results

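The enzymes and readers of DNA methylation and Polycomb repression were followed in sorted splenic regulatory T (Treg) cells, as a group of 10 genes out of the 17464 in the deposited table. The 10 are Dnmt1, Uhrf1, Dnmt3a, Dnmt3b, Tet1, Tet2, Tet3, Mbd2, Ezh1 and Ezh2, taken as the rows whose Ensembl identifier carries one of these symbols. Each symbol matched 1 row, and all 10 genes were among the 16630 that passed the filter on low values. Resting Tregs (rTreg, CD62L+ CD44-), activated Tregs (aTreg, CD62L- CD44+) and KLRG1+ Tregs (kTreg) came from the spleens of young (age 2 months) and old animals (age 26 months). All animals were WT C57BL/6JRccHsd, and no treatment is named. There were 24 libraries in 6 groups of 4, numbered 1 to 4 within each subset and age, and the labels do not say whether libraries with the same number came from the same mouse. Polyadenylated RNA of each sorted population was sequenced after SMART-Seq amplification, and levels below are read counts that the authors scaled to a common depth between libraries (normalized read counts).

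DNA methylation is copied after each round of DNA replication by the maintenance methyltransferase Dnmt1, which Uhrf1 brings to the newly made strand. Dnmt3a and Dnmt3b add methylation at new sites, the Tet enzymes oxidize it on the way to removal, and Mbd2 reads it and recruits a repressor complex. Ezh1 and Ezh2 are alternative catalytic subunits of Polycomb repressive complex 2 (PRC2), which methylates histone H3 at lysine 27. In Treg cells the stability of Foxp3 expression depends on demethylation of an element inside the Foxp3 gene, and Tet enzymes, Dnmt1, Uhrf1 and Ezh2 have each been tied to Treg cell maintenance.

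The libraries held between 15045747 and 29521942 reads on listed genes. The kTreg sort marker went with the labels. Klrg1 lay between 16559 and 41561 in the 8 kTreg libraries and did not pass 357 elsewhere. A pair of libraries stood apart. Young kTreg replicate 4 listed 4913 genes at 0, against 419 to 2756 in the others, and Foxp3 in old aTreg replicate 2 was 5079, against 16925 to 19813 in the other old aTreg libraries. Markers of other blood cells were unequal between groups. The summed level of the 8 macrophage and monocyte genes was 10838 to 27856 in old rTreg, 731 to 1453 in old aTreg, 2687 to 3635 in old kTreg and 831 to 9434 in young rTreg libraries, and it was highest within each young subset in the library numbered 2 (9434 in rTreg, 3216 in aTreg and 27827 in kTreg). Adgre1, C1qa, C1qb and Cd14 were each at 0 in at least 1 old rTreg library, and none of the 8 was at 0 in all of them. As these are bulk samples, fewer cells of a type and less RNA per cell cannot be told apart.

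Expressed per kb of exon, so that genes can be compared with each other, the mean level over the 24 libraries ran from 586 for Mbd2 through 312 for Dnmt1, 281 for Uhrf1, 260 for Ezh1, 161 for Ezh2, 89.0 for Dnmt3a, 57.6 for Tet3, 34.8 for Dnmt3b and 26.03 for Tet2 to 8.26 for Tet1. Mbd2 thus lay above 89.9% of the genes for which a length was known and Tet1 above 19.5%. Tet1 was measured from as few as 24 reads in a library, while Mbd2 never had fewer than 3656.

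**Figure D1:**
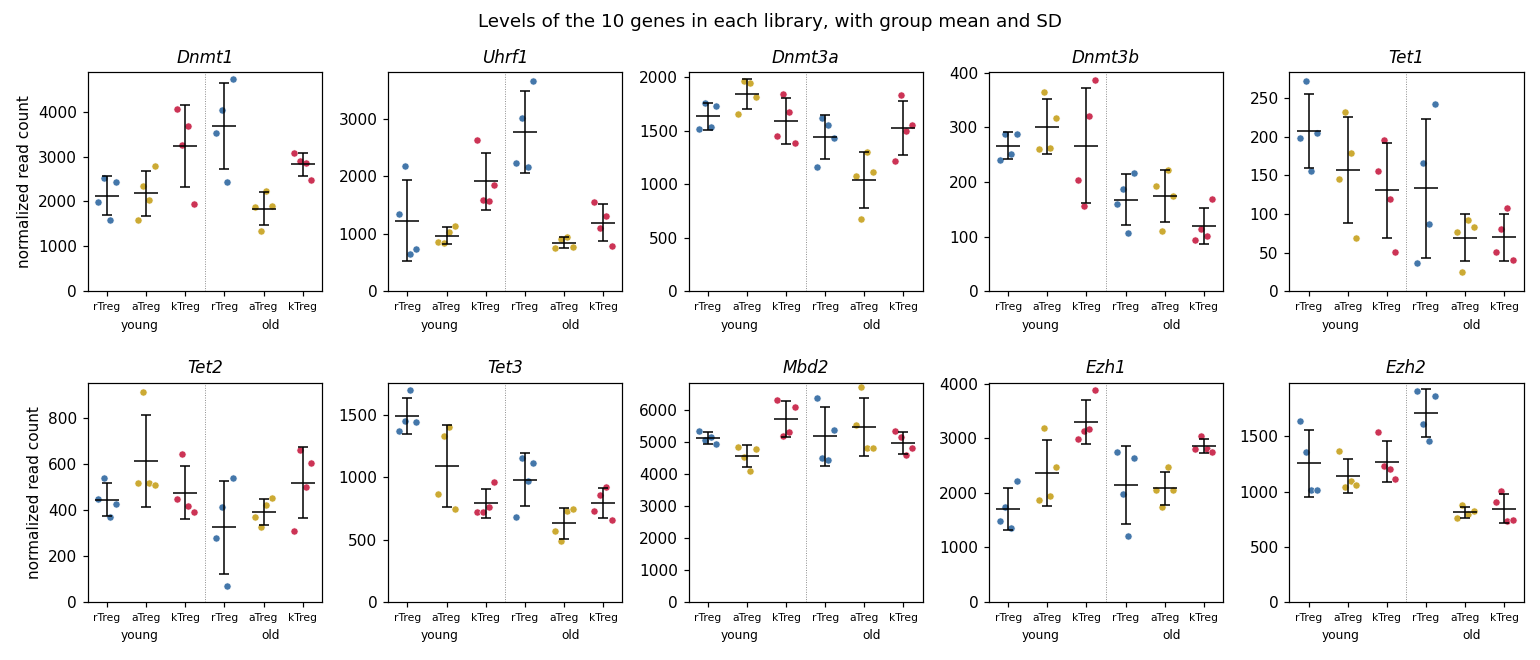
Normalized read count (vertical axis, from 0) of each of the 10 genes in the 6 groups (horizontal axis), with 1 point per library and the group mean and SD over 4 libraries in black. In old mice Uhrf1 and Ezh2 are higher in every rTreg library than in any aTreg or kTreg library, whereas Mbd2 stays between 4082 and 6716 in all 24.

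A gene was called where limma's moderated test gave a Benjamini-Hochberg adjusted p below 0.05 over all genes tested and the fold change was above 1.5. In old mice 3 of the 10 genes were called between aTreg and rTreg cells, all lower, beside 8.6% of all genes tested (3.78% lower). In young mice none was called in that comparison, where 3.35% of all genes were, and 2 had an unadjusted p below 0.05 (13.5% of all genes). Between kTreg and rTreg cells 2 genes were called in old mice (8.86% of all genes) and 2 in young mice (15.8%). Between kTreg and aTreg cells 1 was called in young mice (6.95%) and none in old mice (2.2%), where 3 had an unadjusted p below 0.05 (16.1%). With age, 2 were called in rTreg cells (5.83%), 2 in aTreg cells (2.71%) and none in kTreg cells (1.26%), where 3 had an unadjusted p below 0.05 (15.5%). On the recovered reads edgeR also called none in these comparisons, and DESeq2 called none but 2 in kTreg cells with age. Averaged over both ages, 2 were called in each subset comparison, where 7.39% of all genes differed between kTreg and aTreg, 15.5% between kTreg and rTreg and 8.01% between aTreg and rTreg cells. Comparisons that have a group in common share its 4 libraries and are not independent of each other.

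**Figure D2:**
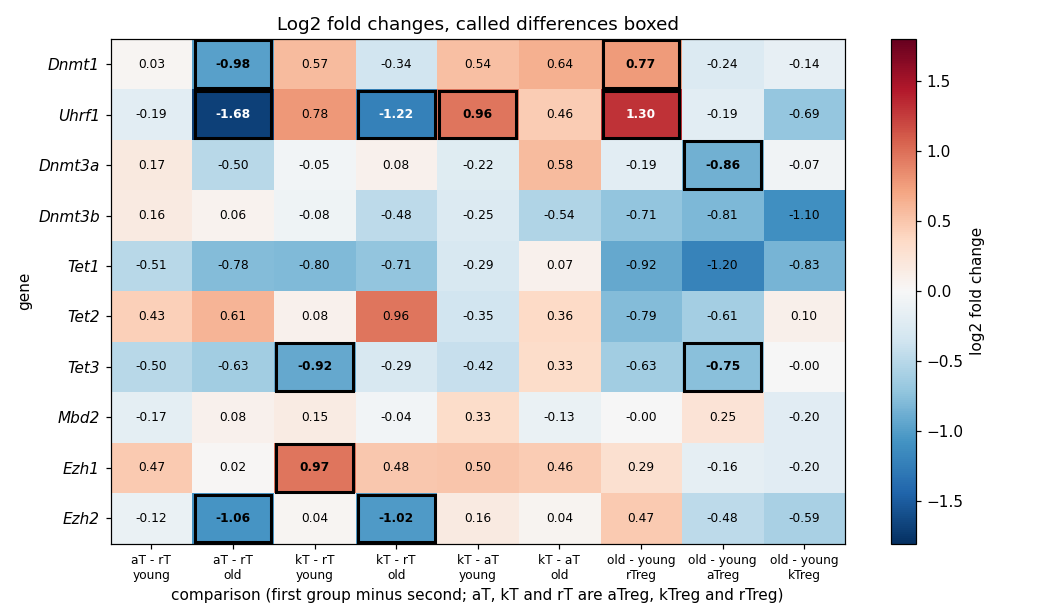
Log2 fold change (colour and number) of each gene (rows) in the 9 comparisons within an age or within a subset (columns), with boxes round the called differences. The boxes for Dnmt1, Uhrf1 and Ezh2 are blue in old aTreg against old rTreg cells, and the only other blue boxes are Uhrf1 and Ezh2 in old kTreg against old rTreg, Tet3 in young kTreg against young rTreg, and Dnmt3a and Tet3 in old against young aTreg cells.

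Dnmt1, Uhrf1 and Ezh2 were the 3 genes called lower in old aTreg than in old rTreg cells, and their promoter windows are shown because they were called together. The windows come from RefSeq (GRCm38.p6), run from 250 bases before to 50 after a listed transcription start, and read 5' to 3' along the gene. For Dnmt1 and Uhrf1, which have 3 and 2 listed starts, the window with the most CG dinucleotides is given (33 in each, against a median of 7 over all windows), a choice made after the matches were seen. They are Dnmt1 at chr9:20952574-20952873 (minus strand), Uhrf1 at chr17:56304063-56304362 (plus strand) and Ezh2 at chr6:47594981-47595280 (minus strand, 31 CG dinucleotides). Capitals mark exact matches, on either strand, to the E2F sequences TTTGGCGC, TTTCGCGC, TTTCCCGC and TTTGCCGC.
Dnmt1: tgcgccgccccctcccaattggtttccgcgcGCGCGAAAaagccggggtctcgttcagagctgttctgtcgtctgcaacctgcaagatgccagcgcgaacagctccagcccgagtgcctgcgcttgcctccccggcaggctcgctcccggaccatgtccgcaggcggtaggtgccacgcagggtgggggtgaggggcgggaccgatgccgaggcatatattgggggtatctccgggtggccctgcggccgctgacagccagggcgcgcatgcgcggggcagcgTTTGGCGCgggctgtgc
Uhrf1: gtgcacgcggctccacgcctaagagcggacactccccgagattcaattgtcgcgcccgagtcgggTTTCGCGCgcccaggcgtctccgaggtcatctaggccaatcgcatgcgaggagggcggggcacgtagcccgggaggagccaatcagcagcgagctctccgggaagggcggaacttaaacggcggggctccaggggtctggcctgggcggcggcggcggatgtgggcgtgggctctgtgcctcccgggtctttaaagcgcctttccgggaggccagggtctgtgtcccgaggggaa
Ezh2: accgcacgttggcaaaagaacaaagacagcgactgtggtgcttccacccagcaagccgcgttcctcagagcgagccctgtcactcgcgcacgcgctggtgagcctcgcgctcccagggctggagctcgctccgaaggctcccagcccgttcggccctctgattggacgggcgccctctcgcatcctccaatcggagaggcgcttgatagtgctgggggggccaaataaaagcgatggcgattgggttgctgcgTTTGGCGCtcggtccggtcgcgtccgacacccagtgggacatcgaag

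The Dnmt1 window held 2 matches, at bases 32 to 39 and 284 to 291 counted from its 5' end, the Uhrf1 window 1 at bases 66 to 73 and the Ezh2 window 1 at bases 254 to 261. These were the only matches in the 14 windows of the 9 genes searched, which leave out Mbd2. Among all 27025 genes with a window, 2.6% had a match in at least 1, and a gene with several listed starts has more chances of one. The median over all windows was 7 CG dinucleotides, and the share among windows as rich in CG as those shown was not computed. The CCAAT box, in 41.1% of genes, was present in the windows of all 3, and the CHR element TTTGAA, in 20.2% of genes, was in none of the 3 windows shown. A match describes the letters of the window and not a bound site.

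Uhrf1 (chromosome 17, 56610275 to 56630489 of GRCm39, plus strand) was far higher in old resting cells than in the other old subsets. Its level was 2227, 3012, 2153 and 3658 in old rTreg replicates 1 to 4, 752, 902, 947 and 772 in aTreg and 1558, 1098, 1315 and 794 in kTreg cells. Every old rTreg library was above every old aTreg and kTreg library. The log2 difference was -1.68 ± 0.29 (SE) for aTreg against rTreg (adjusted p = 0.000681) and -1.22 ± 0.29 for kTreg against rTreg (adjusted p = 0.00915). Leaving out the 3 old libraries numbered 2 or the 3 numbered 4 raised the adjusted p of the kTreg difference to 0.0546 and 0.137, and the aTreg difference stayed called in all 45 alternatives. Averaged over both ages it was -0.93 ± 0.21 (adjusted p = 0.00406), although in young mice it was -0.19 ± 0.29 (adjusted p = 0.901).

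In young mice Uhrf1 was uneven among resting cells, with 1342 and 2187 in rTreg replicates 1 and 2 and 653 and 739 in replicates 3 and 4. Young aTreg libraries had 860, 832, 1038 and 1136, and young kTreg libraries had 2628, 1592, 1573 and 1852. All 4 young kTreg libraries were above all young aTreg libraries, and the difference of 0.96 ± 0.29 on the log2 scale was called (adjusted p = 0.0432). It was not called in 12 of the 24 fits that left out 1 library (adjusted p 0.0510 to 0.116; without any 1 of young aTreg replicates 1 to 4, young kTreg replicates 1, 3 or 4, old aTreg replicates 1, 3 or 4, or old kTreg replicates 2 or 3). Averaged over both ages the kTreg against aTreg difference of Uhrf1 was 0.71 ± 0.21 (adjusted p = 0.0254), and single omissions of young aTreg, young kTreg, old aTreg or old kTreg replicate 1 or of old kTreg replicate 3 took it to 0.0506 to 0.0571. Against young rTreg cells Uhrf1 in young kTreg cells differed by 0.78 ± 0.29 and was not called (adjusted p = 0.0673), but was without young rTreg replicate 2 (adjusted p = 0.0043).

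Between the ages Uhrf1 was called in resting cells. It rose in old against young rTreg cells by 1.30 ± 0.29 on the log2 scale (adjusted p = 0.00779), although the highest young library, at 2187, passed the lowest old one, at 2153. Without the 3 young libraries numbered 3 the adjusted p was 0.0671, and it was 0.0992 when only these 2 groups were fitted. In aTreg cells the log2 difference between ages was -0.19 ± 0.29 (adjusted p = 0.924) and in kTreg cells -0.69 ± 0.29 (adjusted p = 0.268), where all 4 old libraries were below all young ones. The kTreg against rTreg difference of Uhrf1 itself changed with age by -1.997 ± 0.41 (adjusted p = 0.00856), a comparison in which 2 of the 10 genes and 3.02% of all genes were called. Leaving out the old libraries numbered 4 raised that p to 0.0608. The aTreg against rTreg difference changed by -1.50 ± 0.41 and was not called (adjusted p = 0.0697), but was with DESeq2 (0.0307) and without young rTreg replicate 2 (0.00889) or young kTreg replicate 4 (0.0428).

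Dnmt1 (chromosome 9, 20817945 to 20871184, minus strand) was lowest in the aTreg cells of old mice. Its level was 3518, 4038, 2444 and 4718 in old rTreg, 1877, 1351, 2236 and 1906 in old aTreg and 3088, 2901, 2853 and 2481 in old kTreg cells. Old aTreg libraries were the lowest of the 3 subsets with no overlap, while the kTreg range lay inside the rTreg range. Dnmt1 fell by 0.98 ± 0.23 on the log2 scale in old aTreg against old rTreg cells (adjusted p = 0.00825), a call lost without the old libraries numbered 2 (adjusted p = 0.0815) or those numbered 4 (adjusted p = 0.0740).

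In young mice Dnmt1 was 1978, 2527, 1577 and 2440 in rTreg, 1593, 2336, 2026 and 2788 in aTreg and 4054, 3252, 3686 and 1947 in kTreg libraries. The first 3 kTreg libraries were above all other young libraries, and young kTreg replicate 4, the library with many genes at 0, was not. The differences of young kTreg cells, 0.54 ± 0.23 against aTreg (adjusted p = 0.161) and 0.57 ± 0.23 against rTreg (adjusted p = 0.0865), were not called, and both were without that library (adjusted p = 0.0253 and 0.00892). Over both ages Dnmt1 was on average higher in kTreg than in aTreg cells by 0.59 ± 0.16 (adjusted p = 0.0189), a fold change of 1.51 at the edge of the threshold, and the call was lost with TMM or upper quartile scaling, where the fold was below 1.5 (adjusted p 0.0142 to 0.0226), and without young aTreg replicate 1 or 3, young kTreg replicate 1, 2 or 3, old aTreg replicate 2 or old kTreg replicate 1 or 2 (adjusted p 0.0319 to 0.0501 in these 8, the fold below 1.5 where the p was below 0.05). Dnmt1 was also higher in old than in young rTreg cells, by 0.77 ± 0.23 (adjusted p = 0.0454). That call held in 20 of 44 alternatives, and 15 of the 24 single libraries each ended it (adjusted p 0.0502 to 0.178): young rTreg replicates 1, 3 and 4, young aTreg replicates 2 and 3, young kTreg replicate 2, old rTreg replicates 1, 2 and 4, old aTreg replicates 1 and 4, and old kTreg replicates 1 to 4. The age changes of the Dnmt1 differences, -0.92 ± 0.33 for kTreg and -1.01 ± 0.33 for aTreg against rTreg cells, were not called (adjusted p = 0.135 and 0.123), and both were without young kTreg replicate 4 (0.0249 and 0.0437).

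Genes of cell division were examined beside Uhrf1 and Dnmt1, since both act at the replication fork. Of the 25 genes of DNA replication and S phase, 13 were called lower and none higher in old aTreg against old rTreg cells, with a median log2 difference of -0.77 over the 25, against 0.11 over all genes tested. All 15 mitosis genes were called lower there, with a median of -2.16. In these lists Rrm2, a subunit of ribonucleotide reductase, fell by 1.81 (adjusted p = 0.0001), the DNA ligase gene Lig1 by 1.18 (adjusted p = 0.000685) and Ccna2, encoding cyclin A2, by 2.36 (adjusted p = 0.000129) on the log2 scale. In old kTreg against old rTreg cells 13 of 25 and 13 of 15 were called lower (medians -0.83 and -1.50, all genes 0.10), and in old against young rTreg cells 10 of 25 and 13 of 15 were called higher (medians 0.73 and 1.58, all genes -0.08). Without the pair of libraries that stood apart these counts were 13 and 15, 17 and 14, and 12 and 15. The summed level of the 15 mitosis genes was 24009 to 28987 in old rTreg, 4983 to 7999 in old aTreg and 7397 to 10958 in old kTreg libraries, and 13783, 17579, 5360 and 4911 in young rTreg replicates 1 to 4, the same pair of young resting libraries in which Uhrf1 was high. In young kTreg against young aTreg cells 15 of 15 mitosis genes and 2 of 25 replication genes were called higher, and 15 and 5 without that pair.

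Over the 24 libraries the genes whose log2 levels were most like Uhrf1 were Cip2a (Pearson r = 0.93), Lig1 (0.93) and Bub1 (0.93), those most like Dnmt1 were Rfwd3 (0.93), Atad2 (0.89) and Grk2 (0.89), and those most like Ezh2 were Chaf1b (0.87), Psat1 (0.87) and Rcc1 (0.85). Among the 10 genes the closest pairs were Dnmt1 with Uhrf1 (r = 0.75), Uhrf1 with Ezh2 (0.74) and Tet1 with Tet3 (0.74). These values describe libraries that share groups, and carry no test.

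**Figure D3:**
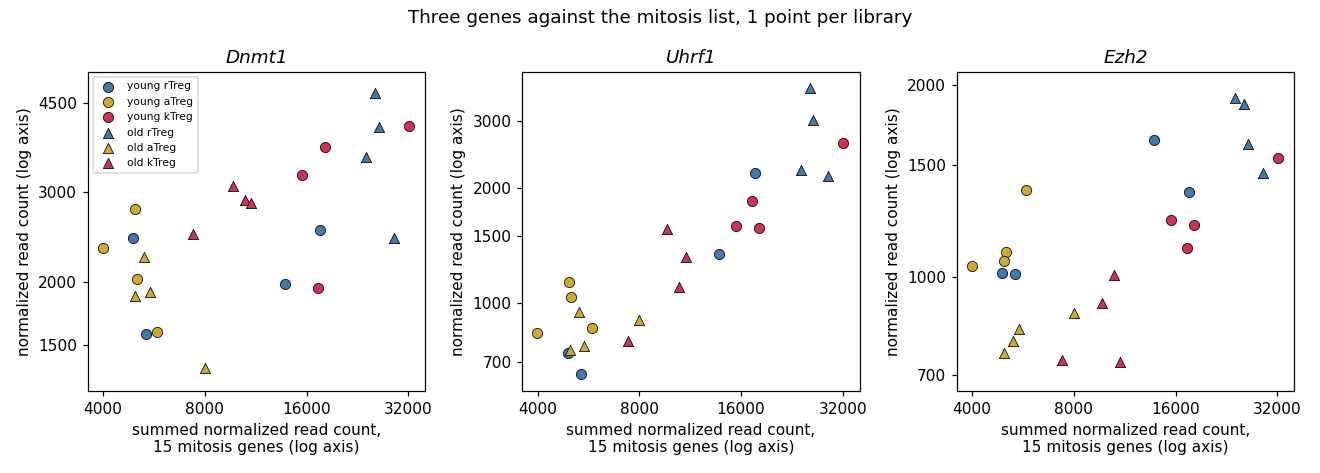
Normalized read count of Dnmt1, Uhrf1 and Ezh2 (vertical axes, log scale) against the summed normalized read count of the 15 mitosis genes (horizontal axes, log scale), with 1 point per library, circles for young and triangles for old mice. Old aTreg libraries sit at the lower left of the Uhrf1 panel and old rTreg libraries at the upper right, while old kTreg libraries have Ezh2 between 734 and 1006 at mitosis sums of 7397 to 10958.

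Macrophage and monocyte, NK, plasma cell, neutrophil and platelet markers moved in part with the same old rTreg libraries. In old against young rTreg cells 1 of 8 macrophage and monocyte genes (Ly6c2), 2 of 6 NK genes (Klrb1c and Tyrobp), 2 of 6 plasma cell genes (Sdc1 and Prdm1), 1 of 3 platelet genes (Itga2b) and none of the 6 neutrophil or 6 tested B cell genes were called higher. In old aTreg against old rTreg cells 1 of 8 (Lyz2), 3 of 6 NK (Ncr1, Eomes and Tyrobp), 2 of 6 neutrophil (Mmp8 and Elane) and 1 of 3 platelet genes (Itga2b) were called lower. In old kTreg against old rTreg cells 2 of 6 NK genes (Ncr1 and Tyrobp) were called lower. None of the 8 macrophage and monocyte genes was called there, though their median log2 difference was -1.03. That median was -2.22 in old aTreg against old rTreg cells and 1.73 in old against young rTreg cells. Their summed level was 10838 or more in old rTreg libraries, against at most 1453 in old aTreg and 3635 in old kTreg libraries. Prdm1, of the plasma cell list, was called higher in old kTreg against old rTreg cells and in young kTreg against young rTreg cells. In the young comparison Sdc1 of that list was called higher too, and Jchain was called lower. The summed level of the 6 NK genes was 2574 to 6430 in old rTreg, 1830 to 4047 in old aTreg and 776 to 1519 in old kTreg libraries. The old rTreg and old aTreg ranges of this sum overlapped. In each young subset the library numbered 2 had the highest macrophage and monocyte sum. These sums were 9434 in rTreg, 3216 in aTreg and 27827 in kTreg cells, and the highest old rTreg library had 27856. Uhrf1 in the library numbered 2 was the highest of its group in rTreg (2187) and the lowest in aTreg cells (832). In kTreg cells it lay within the range of the others (1592). Ezh2 in these libraries was 1357, 1040 and 1228. The part of these markers in the differences of Uhrf1, Dnmt1 and Ezh2 was not tested.

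Ezh2 (chromosome 6, 47507073 to 47572331, minus strand) had the smallest adjusted p of the 10 genes in any comparison. In old mice it was 1910, 1616, 1457 and 1867 in rTreg, 760, 877, 793 and 828 in aTreg and 907, 1006, 734 and 739 in kTreg libraries. Both aTreg and kTreg libraries lay well below rTreg libraries, with no overlap. The log2 difference was -1.06 ± 0.16 for aTreg (adjusted p = 0.00015) and -1.02 ± 0.16 for kTreg cells (adjusted p = 0.000262), and both were called in all 45 alternatives.

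In young mice no such difference was called. Ezh2 was 1642, 1357, 1011 and 1013 in young rTreg, 1367, 1040, 1095 and 1059 in young aTreg and 1538, 1228, 1208 and 1111 in young kTreg libraries, with overlapping ranges, and the log2 differences from rTreg were -0.12 ± 0.16 (adjusted p = 0.874) and 0.04 ± 0.16 (adjusted p = 0.893). The change of these differences with age was called, at -1.06 ± 0.22 for kTreg against rTreg (adjusted p = 0.0101) and -0.95 ± 0.22 for aTreg against rTreg (adjusted p = 0.0378), where Ezh2 was the only 1 of the 10 genes called and 1.56% of all genes were. The first was lost without the young libraries numbered 3 (adjusted p = 0.0658) or the old ones numbered 4 (0.0680). The second was lost with either other scaling, with no mean-variance trend, with edgeR (adjusted p 0.0502 to 0.0598 in these), and in 12 of 24 single omissions (0.0517 to 0.105), namely young rTreg replicates 3 and 4, old rTreg replicates 1 and 4 and each of the 8 aTreg libraries.

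Within subsets, Ezh2 differed between ages by 0.47 ± 0.16 in rTreg (adjusted p = 0.0762), -0.48 ± 0.16 in aTreg (adjusted p = 0.127) and -0.59 ± 0.16 in kTreg cells (adjusted p = 0.0685), none of them called. All 4 old aTreg and all 4 old kTreg libraries were nonetheless below every young library of their subset. DESeq2 on the recovered reads called Ezh2 lower in old kTreg cells (adjusted p = 0.0198), and omission of young rTreg replicate 1 made the rTreg difference a call (adjusted p = 0.0278). Over both ages Ezh2 was on average lower in aTreg than in rTreg cells by 0.59 on the log2 scale (SE 0.11, adjusted p = 0.00114), a fold change near the threshold of 1.5, so that the call was lost with TMM scaling and without any 1 of 9 libraries (young rTreg replicates 1 and 2, young aTreg replicates 2 to 4, old rTreg replicates 1 and 4, old aTreg replicates 1 and 3) although the adjusted p stayed at or below 0.00338 in those single omissions. The kTreg against rTreg average of Ezh2, -0.49 ± 0.11, had an adjusted p of 0.00263 and a fold below 1.5.

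Ezh1 (chromosome 11, 101081934 to 101117315, minus strand) was on average highest in kTreg cells at both ages. It was 2985, 3134, 3161 and 3886 in young kTreg libraries, 1486, 1741, 1360 and 2224 in young rTreg and 1865, 3180, 1947 and 2469 in young aTreg libraries. Every young kTreg library was above every young rTreg library, with a log2 difference of 0.97 ± 0.21 (adjusted p = 0.00233), called in every alternative, whereas young kTreg and aTreg libraries overlapped. In old mice Ezh1 was 2809, 3038, 2803 and 2756 in kTreg, 2754, 1977, 1209 and 2639 in rTreg and 2054, 1748, 2473 and 2060 in aTreg libraries. The old kTreg libraries were the highest without overlap, though by as little as 2756 against 2754, and the difference from rTreg of 0.48 ± 0.21 was not called (adjusted p = 0.161). Averaged over both ages the kTreg against rTreg difference was 0.72 ± 0.15 (adjusted p = 0.00108). The kTreg against aTreg difference of 0.48 ± 0.15 had an adjusted p of 0.0379 and a fold change below 1.5. Reads of Ezh1 and of the overlapping gene Cntnap1, and of Ezh2 and Cul1, cannot be told apart where they overlap, since the library kit does not keep strand.

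The balance of the pair, chosen for description after its values were seen, was expressed as the log2 ratio of Ezh1 to Ezh2 per kb of exon. Its mean was 0.10 ± 0.53 (SD, n = 4) in young rTreg, 0.69 ± 0.50 in young aTreg and 1.03 ± 0.35 in young kTreg cells, and -0.08 ± 0.37, 1.00 ± 0.27 and 1.42 ± 0.18 in the old subsets. The 4 old rTreg libraries ran from -0.61 to 0.19, and all 8 other old libraries were at 0.65 or above.

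**Figure D4:**
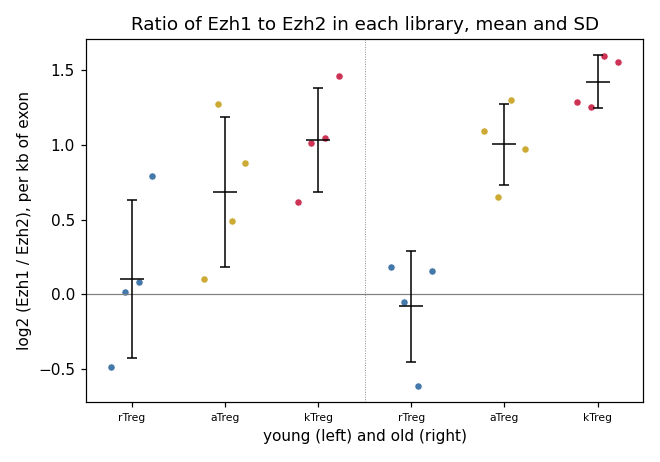
Log2 ratio of Ezh1 to Ezh2 per kb of exon (vertical axis) in the 6 groups (horizontal axis), with 1 point per library and the mean and SD of 4 libraries. Old kTreg libraries lie between 1.25 and 1.59 and old rTreg libraries between -0.61 and 0.19.

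Of the de novo methyltransferases, Dnmt3a fell with age in aTreg cells. Dnmt3a (chromosome 12, 3856007 to 3964443, plus strand) was 1662, 1966, 1944 and 1814 in young aTreg and 1075, 674, 1302 and 1119 in old aTreg libraries. The groups did not overlap, and Dnmt3a fell by 0.86 ± 0.17 on the log2 scale (adjusted p = 0.00429), a call that held in all 44 alternatives, including the one without old aTreg replicate 2, the lowest of the 4. In rTreg cells the log2 difference between ages was -0.19 ± 0.17 (adjusted p = 0.551) and in kTreg cells -0.07 ± 0.17 (adjusted p = 0.864), with overlapping groups in both.

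The Dnmt3a ranges of kTreg and aTreg libraries overlapped at both ages. The log2 differences between them were -0.22 ± 0.17 in young (adjusted p = 0.452) and 0.58 ± 0.17 in old mice (adjusted p = 0.0735), and the change with age, 0.80 ± 0.24, was not called (adjusted p = 0.278), in a comparison where none of the 10 genes and 0.156% of all genes were. At an unadjusted p below 0.05 it held 3 of the 10 genes and 9.4% of all genes, and edgeR and DESeq2 called none of the 10. Between aTreg and rTreg cells, whose libraries also overlapped, the log2 difference of Dnmt3a was 0.17 ± 0.17 in young and -0.50 ± 0.17 in old mice (adjusted p = 0.0625 in old), with a change with age of -0.67 ± 0.24 (adjusted p = 0.161).

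Dnmt3b lay at 106 to 216 in old and 239 to 288 in young rTreg libraries, at 110 to 222 and 260 to 365 in aTreg and at 93.3 to 168 and 157 to 386 in kTreg libraries. Old libraries were below all young ones in rTreg and aTreg cells, and in kTreg cells the highest old library, replicate 4, passed the lowest young one, replicate 2. The log2 differences of Dnmt3b between ages were -0.71 ± 0.30, -0.81 ± 0.30 and -1.10 ± 0.30 in rTreg, aTreg and kTreg cells, none of them called (adjusted p = 0.157, 0.183 and 0.0675). DESeq2 called the kTreg difference (adjusted p = 0.00714), as did limma without young kTreg replicate 2 (0.0241) or old rTreg replicate 3 (0.0446).

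Among the Tet enzymes, Tet3 (chromosome 6, 83339355 to 83436066, minus strand) was the most abundant per kb of exon. In young mice it was 1373, 1450, 1697 and 1441 in rTreg, 863, 1332, 1404 and 747 in aTreg and 723, 720, 761 and 961 in kTreg libraries. The young kTreg libraries were all below the young rTreg libraries, and Tet3 fell by 0.92 ± 0.21 on the log2 scale (adjusted p = 0.00274), a call that held in all 45 alternatives. In old mice Tet3 was 682, 1152, 971 and 1117 in rTreg, 571, 487, 726 and 744 in aTreg and 727, 860, 919 and 659 in kTreg libraries, which overlapped. The old aTreg against rTreg difference of -0.63 ± 0.21 had an adjusted p of 0.0554, and 0.0264 with DESeq2. It was called without young aTreg replicate 3 or 4, young kTreg replicate 4 or old rTreg replicate 1 (0.0172 to 0.0497).

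Averaged over both ages Tet3 was lower in kTreg than in rTreg cells, with a log2 difference of -0.61 ± 0.15 (adjusted p = 0.00384), and the fold passed below 1.5 without young rTreg replicate 3, young kTreg replicate 2, old rTreg replicate 2 or 4 or old kTreg replicate 4. Tet3 also fell with age in aTreg cells by 0.75 ± 0.21 (adjusted p = 0.0464), and the highest old library, at 744, was just below the lowest young one, at 747. That call was lost in 15 of 24 single omissions (adjusted p 0.0524 to 0.206), and without the pair of libraries that stood apart it was 0.117. The 15 were young rTreg replicates 1 to 4, young aTreg replicates 2 and 3, young kTreg replicates 1 to 3, old aTreg replicates 1 and 2 and old kTreg replicates 1 to 4. In rTreg cells the difference with age was -0.63 ± 0.21 (adjusted p = 0.0667), with no overlap between old and young libraries, and was a call without young kTreg replicate 4 (0.0383), with TMM or upper quartile scaling (0.0493 and 0.0483) and with DESeq2 (0.0413). In kTreg cells Tet3 had a log2 difference of -0.0021 ± 0.21 (adjusted p = 0.997). The gene overlaps 5430434F05Rik and Bola3, whose reads cannot be told apart from its own by strand.

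Tet2 and Tet1 were not called in any comparison. Tet2 ranged from 68.0 in old rTreg replicate 3 to 912 in young aTreg replicate 2, and its largest difference, 0.96 ± 0.42 between old kTreg and old rTreg cells (adjusted p = 0.152), was a call without old rTreg replicate 4 and in no other alternative. Without old rTreg replicate 3, where Tet2 was 68.0, it was 0.33 (adjusted p = 0.551). Tet1 ranged from 24.8 in old aTreg replicate 2 to 271 in young rTreg replicate 2. Its log2 differences between ages were -0.92 ± 0.55 in rTreg, -1.20 ± 0.55 in aTreg and -0.83 ± 0.55 in kTreg cells (adjusted p = 0.354, 0.367 and 0.452), with an SE larger than that of any other of the 10 genes. The genes whose pattern was most like Tet3 were Chd3 (r = 0.87) and Chd4 (0.84), which encode remodelling subunits of the NuRD repressor complex, and Tmem121b (0.83).

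Mbd2, the most abundant per kb, had the smallest SE of the 10 genes. It lay between 4082 and 6716 in all libraries, with group means from 4553 ± 343 (SD, n = 4) in young aTreg to 5716 ± 563 in young kTreg cells. Young kTreg libraries, at 6313, 5174, 5301 and 6074, were all above young aTreg libraries, at 4843, 4520, 4082 and 4767, but the difference of 0.33 ± 0.12 on the log2 scale was not called (adjusted p = 0.0944). Young aTreg libraries were also all below young rTreg libraries, at 4925 to 5340, with a log2 difference of -0.17 ± 0.12 (adjusted p = 0.613). Mbd2 was not called in any of the 15 comparisons, those of the change with age included.

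The partners of these enzymes were examined as lists. Of the 21 measured partners of DNA methylation, Gadd45b, which takes part in active demethylation, rose in kTreg against rTreg cells by 1.58 in young (adjusted p = 6.1e-05) and 1.40 in old mice (adjusted p = 0.000731), on the log2 scale, and against aTreg cells by 0.78 (adjusted p = 0.0486) and 0.93 (adjusted p = 0.0434). Without the pair of libraries that stood apart none of the 21 was called between old kTreg and old aTreg cells. Gadd45b was then not called between young kTreg and young aTreg cells either, where Zbtb38 and Idh1 were called higher and Mbd3 lower. Averaged over both ages Gadd45b was still called higher in kTreg than in aTreg cells. Gadd45g was lower in old kTreg than in old rTreg cells (log2 difference -1.06, adjusted p = 0.00691). In young kTreg against young rTreg cells 3 of the 21 were called higher (Gadd45b, the methyl-CpG binding gene Mbd1 and the remodeller gene Hells) and 1 lower (Idh2, whose enzyme makes the Tet cosubstrate 2-oxoglutarate), and 4 higher and none lower without the pair of libraries that stood apart. Idh2 was 393 in young kTreg replicate 4 of that pair and 1056 to 1140 in the other young kTreg libraries. In old mice Gadd45b was higher, and Gadd45g and Idh2 were lower, with 5 lower in all without that pair. In old aTreg against old rTreg cells Cdca7, the activator of Hells, and Gadd45g were lower, at -1.05 and -0.86, and 4 of the 21 were without that pair. Over the 15 comparisons, those of the change with age included, between 16 and 21 of the 21 were not called. The share of all genes called in them ran from 0.156% to 15.8%, the latter between young kTreg and young rTreg cells.

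Most of PRC2's other subunits and cofactors were not called, in comparisons that called at most 15.8% of all genes tested. That share was reached between young kTreg and young rTreg cells, where 1 of the 10 PRC2 genes was called. Of 10 genes, among them Eed and Suz12, the only gene called in any comparison was Aebp2, higher in young kTreg than in young rTreg cells (log2 difference 0.88, adjusted p = 1.47e-06) and in old than in young rTreg cells (0.61, adjusted p = 0.00053), with a change with age of the kTreg difference of -0.67 (adjusted p = 0.00982). Without the pair of libraries that stood apart 2 of the 10 were called higher in young kTreg against young rTreg cells, Jarid2 beside Aebp2. Phf1 was then called higher in old than in young kTreg cells. In the age change of the kTreg against rTreg difference Suz12 was then called lower beside Aebp2. Of the 27 measured genes of Polycomb repressive complex 1 and the H2A deubiquitinase, Pcgf2 and Kdm2b were higher in kTreg than in rTreg cells in young (1.88 for Pcgf2, adjusted p = 0.0187, and adjusted p = 0.00556 for Kdm2b) and old mice (2.04 and 0.93). Asxl1 was higher in young kTreg than in young rTreg cells (0.74, adjusted p = 0.00942), where Cbx8 and Pcgf5 were lower. Without the pair of libraries that stood apart Pcgf5 was the 1 gene of this list called lower there, and Cbx8 was 152 in young kTreg replicate 4 and 296 to 323 in the other young kTreg libraries. Kdm6a, an X-linked H3K27 demethylase, was higher in kTreg than in rTreg cells in young (0.83, adjusted p = 0.0186) and old mice (0.77, adjusted p = 0.0475), and Kdm6b was not called. Of 9 NuRD subunits, Gatad2a was called higher and Hdac2 lower in young kTreg against young rTreg cells, Mta2 in the change of that comparison with age, and none elsewhere. Without that pair the calls of Hdac2 and Mta2 were lost, and Chd3 and Gatad2b were called lower in young kTreg against young rTreg cells. Of 10 Treg identity genes, 5 were called higher in old kTreg than in old aTreg cells (Ctla4, Tnfrsf18, Foxp3, Ikzf4 and Ikzf2). Of all genes tested 2.2% were called there, and without the pair of libraries that stood apart 4 of the 10 were called higher. In old against young aTreg cells 3 were called lower (Lrrc32, Il2ra and Ctla4), beside 2.71% of all genes, and 3 without that pair. Also without that pair, 3 were called higher (Ctla4, Tnfrsf18 and Capg) and 2 lower (Lrrc32 and Izumo1r) in young kTreg against young aTreg cells. Against young rTreg cells 4 were then called higher and the same 2 lower in young kTreg cells. Against old rTreg cells 5 were called higher and Lrrc32 lower in old kTreg cells.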

How the data were processed

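The authors deposited one table of normalized read counts per gene (unit signal: reads divided by a size factor per library), made per the submitters' processing notes with HISAT2 2.2.1, SAMtools 1.13, HTSeq 1.99.2 and DESeq2 1.44.0 on GRCm39. The annotation release, strand setting and treatment of multimapping reads are not given in the sources used here. Symbols came from GENCODE M39, which matched 17353 of 17464 identifiers. One read was worth 0.6938 to 1.3183 units, and 100% of values came out as whole reads within 0.001, for 15045747 to 29521942 reads per library.

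Genes at 10 or more in at least 4 libraries (16630) were tested on log2(value + 1), so fold changes of low genes are understated, with limma 3.58.1 in R 4.3.3, in one fit over 6 groups with a mean-variance trend and 18 residual degrees of freedom. To be called, a gene had to pass 0.05 after Benjamini-Hochberg adjustment and change by more than 1.5-fold. The genes named are the 10, the genes of the fixed partner and cell division lists, and for each of the 10 the genes of highest Pearson r over libraries. The 10 genes and the lists were chosen with earlier results of these data known. The labels do not tie libraries to mice, so p-values measure the spread between these libraries. Results for a few listed genes are not reported here. Promoter windows were searched for exact E2F, CHR and CCAAT matches, and a planned search for the NRF1 motif is not reported. In all 46 alternatives were tried, with edgeR 4.0.16 and DESeq2 1.42.0 on recovered reads among them. Scripts were tested on simulated data. Python 3.11.15, pandas 2.3.3, numpy 2.4.6 and matplotlib 3.10.9 were used for tables and plots.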

Additional observations from a re-analysis of the deposited data

Results flagged for a closer look

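In 3 of the 60 groups of 4 libraries tested for an outlying library, 1 stood apart from the other 3 by Dixon's test, and chance alone flags about 1 in 20 such groups. Tet2 was 912 in young aTreg replicate 2 and 509 to 517 in the other young aTreg libraries. Tet3 was 961 in young kTreg replicate 4, the library with 4913 genes at 0, and 720 to 761 in the others. Ezh2 was 1367 in young aTreg replicate 1 and 1040 to 1095 in the others.

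The differences between subsets changed with age for 2 genes. The log2 difference between kTreg and rTreg cells moved by -1.997 for Uhrf1 (limma adjusted p = 0.00856) and by -1.06 for Ezh2 (adjusted p = 0.0101), and that between aTreg and rTreg cells by -0.95 for Ezh2 (adjusted p = 0.0378). Dnmt3a was taken up for direction alone. Set side by side by number, each kTreg library was lower than the aTreg library in young mice and higher in old mice, a change of 0.80, and each aTreg library was higher than the rTreg library in young mice and lower in old mice, a change of -0.67. That the numbers mark shared mice is not stated. By that rule the difference was not tested, and limma's interaction term did not pass (adjusted p = 0.278 and 0.161).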

How the results depend on the processing

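No log2 fold change of the 10 genes that was called, as reported or under an alternative, reversed its direction. Of the 10 genes, the number called moved by more than 1.5 times as follows. Between kTreg and aTreg cells it was 1 with TMM and 1 with upper quartile scaling over both ages, 0 in young mice with the replicate block as a fixed term (Uhrf1, adjusted p = 0.0698) or no mean-variance trend, and 1 in old mice when only the groups compared were fitted. Between aTreg and rTreg cells over both ages it was 1 with TMM scaling. With age it was 1 in rTreg cells with the replicate block as a random term (Dnmt1, adjusted p = 0.0506) or no trend and 0 with only the groups compared, 1 in aTreg cells with only the groups compared, with no trend, or without the pair of libraries that stood apart (an alternative added after seeing the data), and 2 in kTreg cells with DESeq2. For the age change of aTreg against rTreg it was 0 with TMM scaling, upper quartile scaling, no trend or edgeR and 3 with DESeq2. Beside these, the block changed the call of Tet3 in old aTreg against rTreg cells (adjusted p = 0.0443, random) and of no other of the 10 genes. The numbers were not taken to pair the libraries. Deviations from group means of same-numbered libraries had r from -0.0636 to 0.352, over 0.1 in 11 of 24 pairs. By pair of subsets the median r was 0.0911 to 0.153 for the same number and -0.0507 to -0.0331 for other numbers. In 39 of 48 checks a library correlated best with its own number, among the 4 libraries of another subset at its age. By these medians same-numbered libraries were more alike than others, and the main fit held no term for number.

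Leaving out 1 library, the 3 libraries of 1 number and age, or that pair of libraries gave 0 to 3 called genes for kTreg against aTreg over both ages, 0 to 1 in young and 0 to 1 in old mice, 1 to 2 for kTreg against rTreg over both ages and 1 to 3 in old mice, 1 to 4 for aTreg against rTreg over both ages and 2 to 5 in old mice, 0 to 3 in rTreg, 1 to 2 in aTreg and 0 to 1 in kTreg cells with age, and 0 to 3 for the age change of each of kTreg and aTreg against rTreg. Over all genes, the number called was uneven for old kTreg against old aTreg (366 as reported, 1261 with only the groups compared, 708 with DESeq2) and with age in kTreg cells (209, 57 with only the groups compared, 109 with edgeR, 426 with DESeq2). It was 557, 1033 and 854 for young aTreg against rTreg, 451, 767 and 700 with age in aTreg, and 503, 287 and 848 for the age change of kTreg against rTreg (as reported, only the groups compared, DESeq2). It was 625 in place of 1156 for young kTreg against aTreg and 478 in place of 970 with age in rTreg with only the groups compared. The age change of aTreg against rTreg had 259 as reported, 398 with the replicate block as a fixed term, 169 with no trend and 623 with DESeq2, and that of kTreg against aTreg had 26, 16 with only the groups compared, 11 with upper quartile scaling, 4 with no trend and 134 with DESeq2. The cause of these shifts was not tested. Tet1, with 24 to 317 reads per library, is the gene whose depth limits its comparison most.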
